A study of Mus musculus with 18 samples.

Results

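The somatic linker histone genes Hist1h1a, Hist1h1b, Hist1h1c, Hist1h1d and Hist1h1e were followed across 18 RNA-seq libraries of mouse embryonic stem (ES) cell RNA. They were taken by gene name and are 5 of the 47643 genes in the deposited count table, each represented by 1 transcript entry. In the libraries primed with oligo(dT) alone, 4 of them had between 1.57% and 5.15% of the level reached with the random primer N6, on the CPM scale (counts scaled to the library total). Hist1h1b was the exception and had 20.3% of its N6 level. These shares depend on the scale: on levels scaled between libraries by the trimmed mean of M values (TMM), the dT level was 10.2% of the mean of the N6 and NSR libraries for Hist1h1b and 0.920% to 2.77% for the others. With any primer set that held random primers all 5 genes were read at 57.4 CPM or more in every library.

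Linker histones bind the DNA where it enters and leaves the nucleosome and favour the compaction of chromatin. The genes studied here are replication-dependent: they are transcribed mainly in S phase, and their mRNAs usually end in a conserved stem-loop, bound by the protein SLBP, in place of a poly(A) tail. In ES cells these variants are made together, and mouse ES cells that lack Hist1h1c, Hist1h1d and Hist1h1e are known to have altered chromatin spacing.

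The RNA came from 5G6GR cells, a mouse ES line known for an inducible Gata6 transgene, grown without feeders in serum and leukemia inhibitory factor. The medium held puromycin and blasticidin, and the labels name no inducer. RT-RamDA, a reverse transcription in which nicking and strand displacement amplify the cDNA, was run on 10 pg of purified total RNA with 17 cycles of library PCR. Its 5 primer sets were NSRdT, N6dT, NSR, N6 and dT, with 3 libraries each. N6 is a mix of random hexamers, NSR (not-so-random) is a set depleted of primers that match ribosomal RNA (rRNA), dT is oligo(dT), and NSRdT and N6dT are mixtures with oligo(dT). The 3 bulk libraries were made from 200 ng of total RNA with an rRNA-depleting kit and 7 PCR cycles, and the labels give N6 as their primer too. Nothing says that replicates came from separate cultures, so every p-value measures the spread between these libraries, which may be technical.

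Library totals were between 5333546 and 10234690 estimated counts. Genes annotated as rRNA, rRNA-like loci and mitochondrial genes together took a mean of 48.0% of the total with NSRdT, 62.7% with N6dT, 56.4% with NSR, 66.4% with N6, 26.9% with dT and 12.8% in bulk, so CPM of library totals are diluted to different degrees. Markers of ES cells summed to 917 CPM or more in every library, those of fibroblast feeders to at most 6.84 CPM and those of trophectoderm to at most 11.7 CPM. The 7 markers of primitive endoderm summed to 6230.3 CPM in bulk replicate 2, against 771 and 714 CPM in the other bulk libraries and 250.2 to 468 CPM in RT-RamDA. Results against bulk are therefore also given without that library where a call was lost or gained, and for the core histones as counts with N6 and dT. Without it the H1 sum in the other bulk libraries was 2159.6 and 2170.2 CPM. In RNA taken from many cells, fewer cells in S phase and less histone RNA per cell cannot be told apart.

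All 5 genes lie in the histone cluster of chromosome 13 and have no intron in GENCODE vM21 on the GRCm38 build. The coding sequences are at chr13:23763717-23764358 on the plus strand for Hist1h1a, chr13:21779883-21780554 on the minus strand for Hist1h1b, chr13:23738849-23739487 on the plus strand for Hist1h1c, chr13:23555090-23555755 on the plus strand for Hist1h1d and chr13:23621838-23622497 on the minus strand for Hist1h1e. RefSeq calls them H1f1, H1f5, H1f2, H1f3 and H1f4 in that order. The histone stem-loop is shown because it usually marks an mRNA end without poly(A). It was searched in the H1 genes by the first 15 letters of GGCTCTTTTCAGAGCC on the transcript strand. All 16 letters, a stricter rule, stand in transcripts of 29 of 55450 GENCODE genes (0.0523%), and 26 of the 29 are named as histones. In capitals are the stem-loop letters, read at chr13:23764387-23764406 for Hist1h1a (plus strand), where the annotated transcript stops after 15 of the 16 letters, chr13:23739507-23739532 for Hist1h1c (plus), chr13:23555782-23555807 for Hist1h1d (plus) and chr13:23621777-23621802 for Hist1h1e (minus).
Hist1h1a stem-loop: ccaacGGCTCTTTTCAGAGC
Hist1h1c stem-loop: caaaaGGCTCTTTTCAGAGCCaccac
Hist1h1d stem-loop: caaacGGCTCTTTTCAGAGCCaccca
Hist1h1e stem-loop: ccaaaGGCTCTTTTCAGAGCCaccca
The stem-loop started 24 to 40 bases after the stop codon in these 4 genes. The GENCODE transcripts searched are 1560 bases long for Hist1h1c, 7425 for Hist1h1d and 1930 for Hist1h1e. These are far longer than the coding sequences of 639, 666 and 660 bases. The letters alone thus do not show that the annotated mRNA ends at the stem-loop. The transcript sequence used for Hist1h1b ends at its stop codon, so the window after it was not searched.

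The genes also resemble each other, which bears on how far a read can be assigned to 1 of them. Of the 31-base words of the coding sequence, 28.7% in Hist1h1c, 34.6% in Hist1h1d and 30.6% in Hist1h1e stood in a transcript of another gene, against 4.36% in Hist1h1b and 0.327% in Hist1h1a. The longest stretch common to Hist1h1c, Hist1h1d and Hist1h1e is printed from Hist1h1e (chr13:23622250-23622371, minus strand), with the 32 bases that all 5 genes share in capitals.
Hist1h1e: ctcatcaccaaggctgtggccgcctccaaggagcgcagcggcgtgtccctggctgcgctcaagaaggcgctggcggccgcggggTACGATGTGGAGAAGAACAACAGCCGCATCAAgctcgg
Levels of Hist1h1c, Hist1h1d and Hist1h1e as single genes are thus less certain than those of Hist1h1a and Hist1h1b, whose words are nearly all their own.

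Priming with random primers against oligo(dT) asked how far these mRNAs depend on a poly(A) tail to be read. Hist1h1a had 99.7, 104 and 108 CPM with NSR and 129, 136 and 152 CPM with N6, against 0.701, 0 and 5.86 CPM with dT. Behind the dT values stood 7, 0 and 59 estimated counts, and a count of 0 at this depth allows up to 0.296 CPM. The 3 dT libraries thus all lay far below the 6 random-primed ones but spread widely among themselves.

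Hist1h1c, which RefSeq names H1f2, had 93.7, 122 and 97.6 CPM with NSR and 139, 153 and 139 CPM with N6, against 3.65, 4.25 and 2.00 CPM with dT. Hist1h1d had 176, 186 and 214 CPM with NSR and 193, 224 and 204 CPM with N6, against 5.99, 13.8 and 12.2 CPM with dT. The lowest of the N6 and NSR libraries was 22.1 times the highest dT library for Hist1h1c and 12.8 times for Hist1h1d. Hist1h1e had 110.4, 93.6 and 78.1 CPM with NSR and 116, 133 and 110.3 CPM with N6, against 1.26, 7.02 and 0 CPM with dT. It is, with Hist1h1a, the gene whose dT libraries included a count of 0.

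Hist1h1b, which RefSeq names H1f5, was read best with dT. It had 113, 141 and 137 CPM with NSR and 125, 127 and 108 CPM with N6, against 24.9, 20.7 and 27.4 CPM with dT. The dT values rested on 249, 210 and 276 estimated counts and lay close together, with a coefficient of variation of 13.9% against a median of 22.5% for genes of 50 to 1000 CPM in the dT libraries. Hist1h1b itself averaged 24.4 CPM with dT, below the range of the genes it is set beside. The lowest N6 or NSR library of Hist1h1b was 3.93 times its highest dT library.

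**Figure D1:**
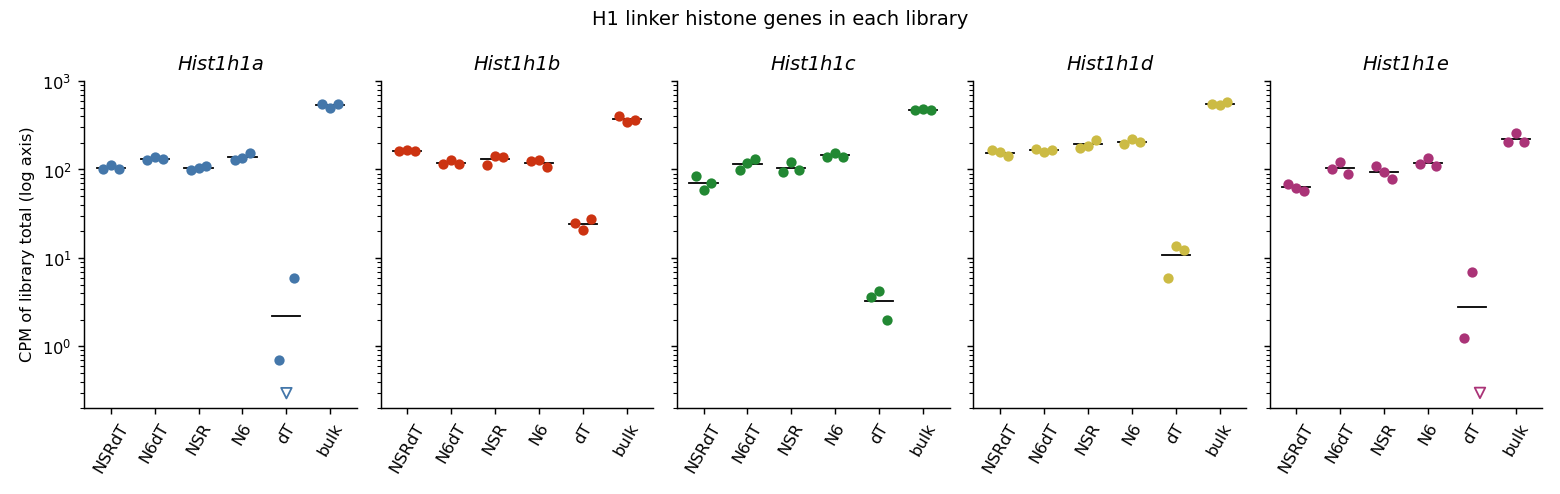
CPM of library totals on a log axis for each gene (panels) and primer set; points are single libraries, bars are means of 3, and open triangles are counts of 0 drawn at the 3-count floor. The dT libraries lie lowest for all 5 genes, and Hist1h1b is the gene with the highest dT level, between 20.7 and 27.4 CPM.

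In edgeR's quasi-likelihood test across all genes (Benjamini-Hochberg adjustment, called at an adjusted p under 0.05, on the TMM scale) all 5 genes were higher with random primers than with dT, where 9.53% of the 15682 tested genes were called higher. The log2 fold change was 6.70 ± 0.75 (SE) for Hist1h1a (adjusted p = 7.83e-06), 3.29 ± 0.16 for Hist1h1b (adjusted p = 2.24e-10), 6.15 ± 0.28 for Hist1h1c (adjusted p = 1.14e-10), 5.15 ± 0.25 for Hist1h1d (adjusted p = 2.24e-10) and 6.19 ± 0.76 for Hist1h1e (adjusted p = 2.25e-05). The median was 6.15 over the 5 genes and 0.12 over all tested genes. With library totals alone as the scale the median of all genes moved to -0.80, and all 5 genes were still called higher, where 5.23% of tested genes were. On the TMM scale 2.91% of tested genes had a larger fold change than Hist1h1a, 3.91% than Hist1h1e, 4.03% than Hist1h1c, 5.90% than Hist1h1d and 10.3% than Hist1h1b. The 95% interval of Hist1h1b (2.98 to 3.60) did not reach that of any other member, the nearest being Hist1h1d (4.67 to 5.64). The fold changes of Hist1h1a and Hist1h1e move with single dT libraries, ranging from 6.07 to 9.24 and from 5.58 to 8.20 when each library in turn was left out, and stayed called each time.

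The 5 S-phase markers (Pcna, Mcm2, Mcm5, Ccne1 and Ccna2) did not share the H1 pattern. Of these, 0 were called higher and 3 lower with random primers, where 7.54% of tested genes were called lower, and their summed level without rRNA, rRNA-like and mitochondrial genes in the total was 1077 to 1243 CPM with NSR and 1144 to 1295 CPM with N6, against 1457 to 1964 CPM with dT. None of the 5 markers was at 0 in any library, and their part in the H1 result was not tested.

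**Figure D2:**
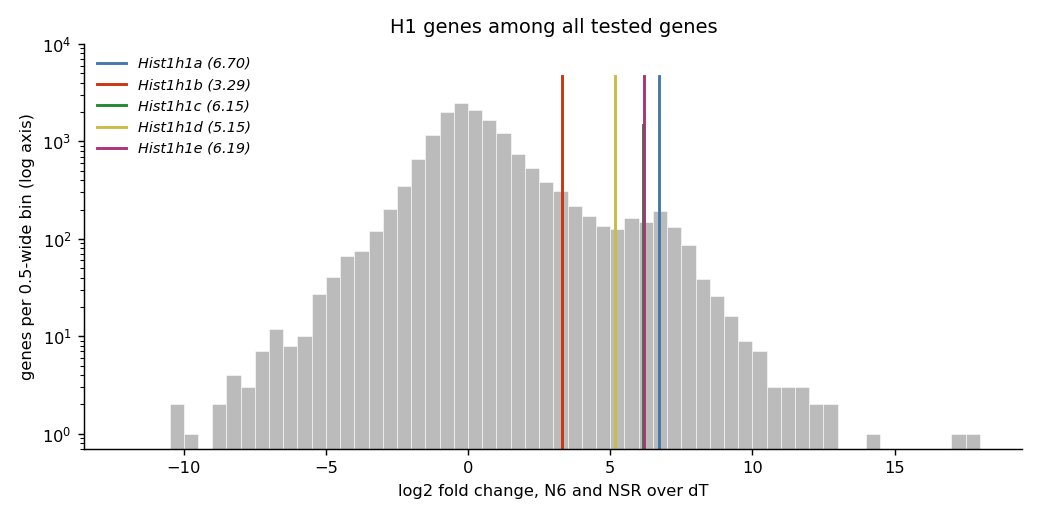
Histogram of the log2 fold change (N6 and NSR over dT) of all 15682 tested genes in bins of 0.5, with the number of genes on a log axis and each H1 gene as a line. Hist1h1b, at 3.29, lies to the left of the other 4 H1 genes, which lie between 5.15 and 6.70.

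The H1 signal as a whole summed to 556 ± 26.5 CPM with NSRdT, 634 ± 23.5 CPM with N6dT, 625 ± 27.7 CPM with NSR, 729.7 ± 38.1 CPM with N6, 43.3 ± 5.89 CPM with dT and 2149.7 ± 26.8 CPM in bulk (SD, n = 3 each, CPM of library totals). With rRNA, rRNA-like and mitochondrial genes left out of the total the means were 1069 CPM with NSRdT, 1701 CPM with N6dT, 1433 CPM with NSR, 2172 CPM with N6, 59.2 CPM with dT and 2464 CPM in bulk. The bulk level was thus 2.95 times the N6 level on the first scale and 1.13 times on the second.

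Its make-up differed most in the dT libraries. Hist1h1b made up 68.2%, 45.3% and 57.7% of the H1 counts with dT, against 16.4% to 18.5% in bulk. With NSRdT it made up 28.04% to 30.3%, and with N6dT, NSR and N6 between 15.1% and 21.8%, so the dT libraries lay above all others and the NSRdT libraries above all but those. On both length scales the share of Hist1h1b with dT was close to this, with a mean of 56.1% per RefSeq gene length and 59.1% per table transcript length. Hist1h1a made up 16.1% to 21.3% with random primers in the mix and 0% to 12.3% with dT, against 23.4% to 25.3% in bulk. Hist1h1e took 10.8% to 18.6% with the 4 random-primed sets, against 9.46% to 12.2% in bulk and 9.46% to 9.58% in bulk without replicate 2. Shares sum to 100 in each library, so a high share of Hist1h1b lowers the others.

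**Figure D3:**
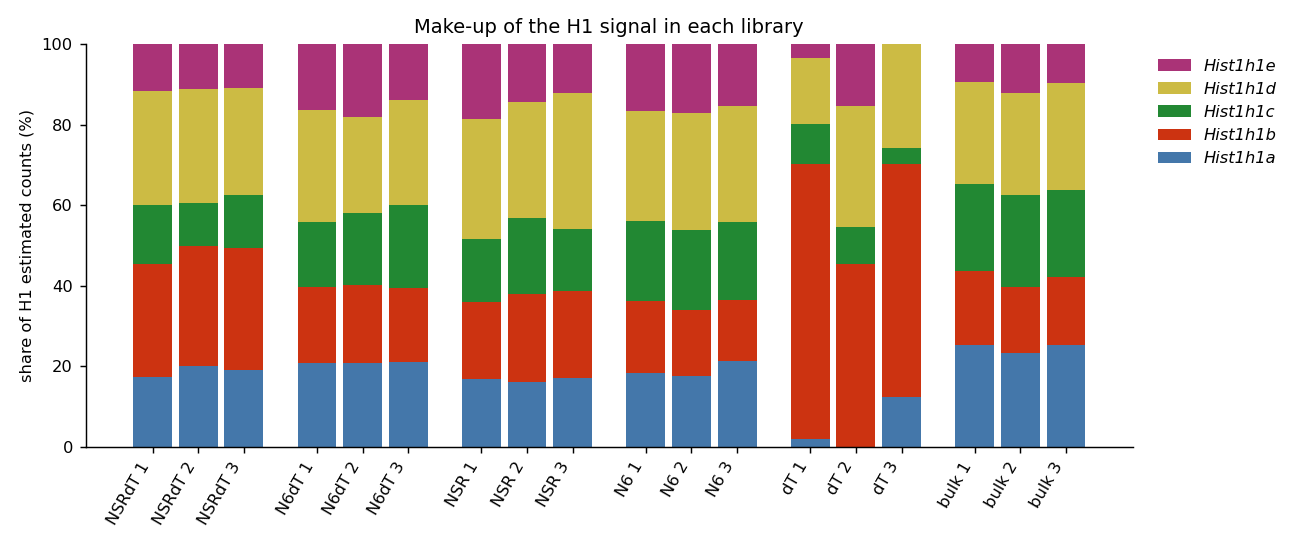
Share of the summed H1 estimated counts taken by each gene, in percent, with 1 stacked bar per library. Hist1h1b fills 45.3% to 68.2% of the bar with dT and at most 30.3% elsewhere.

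Between genes, levels can only be set side by side per length, and the order depended on the length used. Per kilobase of the transcript entry in the table, bulk held 824 ± 45.3 CPM for Hist1h1a, 744 ± 28.6 for Hist1h1d, 500.0 ± 37.3 for Hist1h1b, 303 ± 6.87 for Hist1h1c and 299 ± 40.0 for Hist1h1e (SD, n = 3). Hist1h1c and Hist1h1e did not differ beyond their spread. The entry of Hist1h1a spans 642 bases, its coding sequence alone, and that of Hist1h1c spans 1560 bases and runs past the stem-loop. Per kilobase of the RefSeq gene, which is 745 and 725 bases long for these, Hist1h1d (714 ± 27.4), Hist1h1a (710.1 ± 39.0) and Hist1h1c (651 ± 14.8) came first, followed by Hist1h1b (468 ± 34.9) and Hist1h1e (286 ± 38.3). On that scale Hist1h1d and Hist1h1a did not differ beyond their spread. With dT, Hist1h1b came first on both scales (32.8 ± 4.56 and 30.7 ± 4.26 CPM per kilobase).

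Adding random primers to oligo(dT) brought all 5 genes back up. Hist1h1a had 101, 111 and 100.2 CPM with NSRdT and 127, 138 and 133 CPM with N6dT, and Hist1h1b had 163, 167 and 160.4 CPM with NSRdT and 116, 127 and 116 CPM with N6dT. Hist1h1c had 84.7, 59.2 and 69.9 CPM with NSRdT and 98.4, 118 and 131 CPM with N6dT. The lowest of these values was 13.9 times the highest dT value of Hist1h1c. Hist1h1d had 165, 158 and 142 CPM with NSRdT and 171, 156 and 165 CPM with N6dT, and Hist1h1e had 68.3, 62.1 and 57.4 CPM with NSRdT and 101, 120.2 and 88.2 CPM with N6dT. All 5 genes were called higher with the mixed primers than with dT, where 6.36% of tested genes were called higher, with log2 fold changes from 3.21 ± 0.16 for Hist1h1b to 6.42 ± 0.74 for Hist1h1a (edgeR). The dT libraries are the same as in the comparison of random primers with dT.

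Oligo(dT) added to random primers lowered 1 of the 5 H1 genes relative to other genes. Hist1h1c was called lower, with a log2 fold change of -0.67 ± 0.16 (edgeR adjusted p = 0.0367), where 0.376% of tested genes were called lower. Its TMM-scaled level was 101 ± 44.7 CPM with dT added and 155 ± 48.4 CPM without (SD, n = 6 each), and the groups overlapped. Hist1h1d had a log2 fold change of -0.56 ± 0.15 (adjusted p = 0.0765), Hist1h1e -0.65 ± 0.43, Hist1h1a -0.27 ± 0.41 and Hist1h1b -0.08 ± 0.11, none of them called. The call of Hist1h1c was lost with library totals alone (-0.43, edgeR adjusted p = 0.249) and with totals without annotated rRNA and mitochondrial genes (-0.50, adjusted p = 0.168). It was kept in 4 of 15 fits that each left out 1 library, with adjusted p between 0.00961 and 0.124. It was lost without any single N6, NSR or N6dT library and without NSRdT replicate 2 or 3, where the log2 fold change was between -0.72 and -0.60.

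NSR is set against N6 to see what leaving out rRNA-matching primers does to these mRNAs. Across libraries with and without dT, Hist1h1c was called lower with a log2 fold change of -0.99 ± 0.16 (edgeR adjusted p = 0.0128), where 0.128% of tested genes were called lower. It averaged 87.4 ± 29.7 CPM in the NSR-primed libraries and 169 ± 34.6 CPM in the N6-primed ones on the TMM scale (SD, n = 6 each). The estimates were -0.94 ± 0.44 for Hist1h1e, -0.79 ± 0.41 for Hist1h1a, -0.51 ± 0.15 for Hist1h1d and -0.12 ± 0.11 for Hist1h1b, none of them called. With library totals alone as the scale, which moves the median of all tested genes to 0.42, Hist1h1c had -0.58 (adjusted p = 0.0702) and Hist1h1b turned to 0.29. The call of Hist1h1c was lost when replicate 2 of N6 (edgeR adjusted p = 0.0520) or of NSRdT (adjusted p = 0.0540) was left out, and when replicate 3 of NSR (adjusted p = 0.0532) or of N6dT (adjusted p = 0.0576) was, with log2 fold changes from -0.96 to -0.93.

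Hist1h1a and Hist1h1e, the genes with a count of 0 in a dT library, had the largest standard errors of the 5 genes in the fit of all 15 RT-RamDA libraries. In a fit of the 12 random-primed libraries, chosen after the data were seen, the fold changes of NSR over N6 hardly moved and 4 of 5 genes were called lower, where 0.174% of tested genes were: Hist1h1a at -0.79 ± 0.09 (adjusted p = 0.000984), Hist1h1c at -0.99 ± 0.13 (adjusted p = 0.00229), Hist1h1e at -0.94 ± 0.13 (adjusted p = 0.00487) and Hist1h1d at -0.50 ± 0.09 (adjusted p = 0.0454). Hist1h1b stayed at -0.12 ± 0.09 (adjusted p = 0.947). In the same edgeR fit 3 of 5 were lower with dT added, where 0.656% of tested genes were: Hist1h1d at -0.56 ± 0.09 (adjusted p = 0.00312), Hist1h1c at -0.67 ± 0.13 (adjusted p = 0.00908) and Hist1h1e at -0.65 ± 0.13 (adjusted p = 0.0140). Whether the effect of added dT differed between NSR and N6 was tested as an interaction: 0 of 5 genes were called in the 15-library fit, where 0.0638% of tested genes were called, 0 had an unadjusted p under 0.05, and DESeq2 called 0. In the 12-library fit the interaction estimates ran from -0.49 ± 0.26 for Hist1h1e and -0.35 ± 0.25 for Hist1h1c to 0.21 ± 0.19 for Hist1h1b. None was called there either, and differences of this size were not excluded.

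Each primer set was then set against bulk, in fits of 6 libraries. Bulk differs from each set in its starting amount, library kit, removal of rRNA and number of PCR cycles, and these cannot be told apart. In bulk, Hist1h1a had 546, 495 and 545 CPM, Hist1h1b 402, 347 and 366 CPM and Hist1h1c 467, 484 and 465 CPM. Hist1h1d had 550.1, 534 and 577 CPM and Hist1h1e 205, 258 and 207 CPM. Bulk replicates lay close together, with coefficients of variation of 2.27% for Hist1h1c to 13.4% for Hist1h1e, and bulk was above every RT-RamDA library for all 5 genes on this scale, as it was for 20.2% of the 7819 genes with a mean of at least 10 CPM.

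With dT all 5 genes were called lower than in bulk, where 11.9% of 15708 tested genes were called lower. The log2 fold change was -7.64 ± 1.14 for Hist1h1a, -6.91 ± 0.29 for Hist1h1c, -6.08 ± 1.15 for Hist1h1e, -5.44 ± 0.33 for Hist1h1d and -3.67 ± 0.16 for Hist1h1b (edgeR adjusted p between 0.000126 and 0.0137), beside a median of -0.19 over all genes. Leaving out bulk replicate 1 or 3 took the adjusted p of Hist1h1a to 0.0520 and 0.0574, and leaving out bulk replicate 1, 2 or 3 took that of Hist1h1e to 0.0592, 0.0626 and 0.0649, at log2 fold changes of -7.62 for Hist1h1a and -6.12 to -5.96 for Hist1h1e.

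With NSRdT all 5 genes were called lower than in bulk, where 2.58% of tested genes were called lower. Hist1h1c fell most, to 91.5 ± 17.2 CPM with NSRdT, against 368 ± 8.44 CPM in bulk on the TMM scale, a log2 fold change of -2.01 ± 0.15 (edgeR adjusted p = 0.000576). Hist1h1a had -1.63 ± 0.09, Hist1h1d -1.12 ± 0.09, Hist1h1e -1.12 ± 0.14 and Hist1h1b -0.47 ± 0.09 (adjusted p between 0.000164 and 0.0374). Without bulk replicate 1, 2 or 3, Hist1h1b had -0.41, -0.53 and -0.49 and was not called (adjusted p = 0.203, 0.0806 and 0.211), while the other 4 stayed called. With all 18 libraries in 1 edgeR fit Hist1h1c and Hist1h1d stayed called, and Hist1h1a (-1.65, adjusted p = 0.171), Hist1h1b (-0.48, adjusted p = 0.102) and Hist1h1e (-1.13, adjusted p = 0.538) did not.

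With N6dT 4 of 5 genes were called lower than in bulk, where 2.09% of tested genes were called lower: Hist1h1c at -0.83 ± 0.11 (edgeR adjusted p = 0.00932), Hist1h1a at -0.80 ± 0.09 (adjusted p = 0.00281), Hist1h1d at -0.55 ± 0.09 (adjusted p = 0.0212) and Hist1h1b at -0.44 ± 0.10 (adjusted p = 0.0494). Hist1h1e had 0.08 ± 0.15 and was not called. Hist1h1a stayed called in all 6 fits that left out a library and Hist1h1b in 0 of 6, at log2 fold changes of -0.50 to -0.38. Hist1h1c lost its call without bulk replicate 1 or 3 (adjusted p = 0.0608 and 0.0609), and Hist1h1d without bulk replicate 1, 2 or 3 (adjusted p = 0.128, 0.0622 and 0.160).

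With NSR 4 of 5 genes were called lower than in bulk, where 4.65% of tested genes were called lower. Hist1h1a had -1.34 ± 0.09 (edgeR adjusted p = 0.000257) and Hist1h1c -1.17 ± 0.12 (adjusted p = 0.00157), and both stayed called whichever library was left out. Hist1h1d at -0.52 ± 0.10 (adjusted p = 0.0244) and Hist1h1b at -0.50 ± 0.12 (adjusted p = 0.0424) lost their calls without bulk replicate 1, 2 or 3, with adjusted p between 0.0754 and 0.214. Hist1h1e had -0.24 ± 0.17 and was not called.

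With N6, 1 of 5 genes was called lower than in bulk. Hist1h1a was at 223 ± 19.96 CPM with N6, against 330 ± 18.2 CPM in bulk on the TMM scale, a log2 fold change of -0.56 ± 0.10 (edgeR adjusted p = 0.0226), where 3.9% of tested genes were called lower. Hist1h1c had -0.35 ± 0.09, Hist1h1b -0.27 ± 0.11, Hist1h1d -0.05 ± 0.09 and Hist1h1e 0.47 ± 0.14. The 95% interval of Hist1h1d ran from -0.24 to 0.13. Hist1h1a lost its call without bulk replicate 1, 2 or 3 (adjusted p = 0.141, 0.0549 and 0.150), and Hist1h1c gained one without N6 replicate 2 (adjusted p = 0.0343). With library totals alone as the scale, which moves the median of all genes to -1.39, all 5 genes were called lower with N6, where 56.4% of tested genes were, and Hist1h1e turned to -0.90, so the sign of Hist1h1e depends on the scale.

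**Figure D4:**
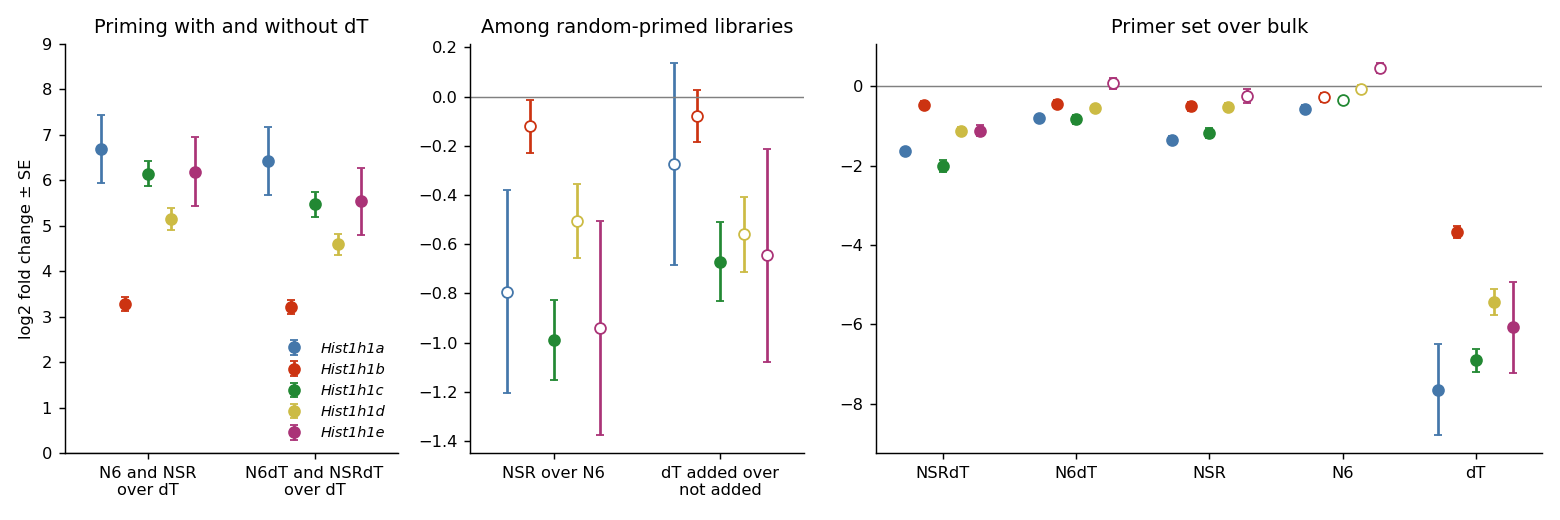
Log2 fold change ± SE from edgeR for each H1 gene in 9 comparisons, filled where called at an adjusted p under 0.05; in the right panel each primer set is over bulk. Hist1h1b moved least with dT (3.29 over dT, -3.67 against bulk), and the genes lay between -0.56 and 0.47 for N6 over bulk.

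The other linker histone genes were far lower. H1f0, a replication-independent variant of differentiated or resting cells, averaged between 6.50 and 10.3 CPM with the sets that held random primers and 5.60 CPM with dT, against 36.1 CPM in bulk. H1fx, another replication-independent variant, averaged 2.78 to 3.96 CPM with the sets that held random primers and 9.88 ± 4.89 CPM with dT, against 12.4 ± 2.52 CPM in bulk. Neither was called between random primers and dT (log2 fold changes 1.19 ± 0.67 and -0.48 ± 0.69). Hist1h1t, the testis variant, was between 0.484 and 3.00 CPM with random primers in the mix and at 0 in all 3 dT libraries, against 5.06 to 7.23 CPM in bulk, and was called higher with random primers. H1fnt reached at most 1.87 CPM, and H1foo and Hils1, germ-cell variants, were listed at 0 throughout.

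Most core histone genes, taken by name, moved the same way as H1. Such genes usually share the stem-loop end, which was not checked for each of them. Of 57 tested, 45 were higher with random primers than with dT, 1 was lower and 11 were not called, with a median log2 fold change of 4.64, or 4.32 with the 10 genes at 0 in every dT library put at a bound of 3 counts per library. Over all tested genes 9.53% were called higher and 7.54% lower, and the median was 0.12. By family 12 of 18 H2A, 14 of 16 H2B, 9 of 11 H3 and 10 of 12 H4 genes were higher. The lower gene was Hist1h2ap, which averaged 76.5 ± 16.6 CPM with NSR and 109 ± 8.38 CPM with N6, against 265 ± 18.1 CPM with dT, a log2 fold change of -0.60 ± 0.15 (edgeR adjusted p = 0.0128). Hist2h2aa1, which comes after Hist1h2ap in mean level over all 18 libraries, averaged 118 ± 17.9 CPM with NSR and 109 ± 11.3 CPM with N6, against 1.06 ± 1.84 CPM with dT. Reads can be shared between near-identical core histone genes, so single members are uncertain. The smallest p in this comparison belonged to a gene entry named Hist2h2bb (edgeR adjusted p = 5.03e-11), which averaged 89.0 CPM with NSR and 51.8 CPM with N6 and was at 0 in all dT libraries. Another entry of the same name averaged 4.01 CPM with NSR and 1.30 CPM with N6. It was also at 0 in all dT libraries and called higher (7.60 ± 1.35, edgeR adjusted p = 0.00141).

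Against bulk, the core histones had lower medians than the H1 genes. With N6, 32 of 58 tested core histones were lower than bulk, 4 were higher and 22 were not called, with a median of -1.46, against a median of -0.27 over the 5 H1 genes and -0.03 over all genes. Of the 15207 genes tested, 593 (3.9%) were called lower with N6 and 503 higher. H4 genes were lowest, with 11 of 12 called lower and a median of -3.42. Leaving out bulk replicate 2 gave 10 of 13 H4 genes called lower and a median of -3.25. Hist1h4h, the core gene with the smallest p, averaged 10.7 ± 0.413 CPM with N6 and 493 ± 16.1 CPM in bulk (library totals), a log2 fold change of -4.16 ± 0.11 (edgeR adjusted p = 2.57e-06). Hist1h4c had the smallest p with NSR (-4.42 ± 0.17) and with N6dT (-4.25 ± 0.17) and was at 0 with dT, and Hist1h4f had it with NSRdT (-5.42 ± 0.15). With dT 47 of 55 core histones were called lower than bulk, 0 were higher and 8 were not called, with a median of -6.86, or -6.50 with genes at 0 at their bound, against -6.08 over the H1 genes. Among all tested genes 11.9% were called lower with dT, and the median was -0.19. Without bulk replicate 2, 27 of 59 core histones were lower and 3 higher with N6, and 33 of 59 were lower and 0 higher with dT, with medians of -1.40 and -6.73, and Hist1h4h, Hist1h4c and Hist1h4f stayed called in the comparisons named. Calls over all genes in those fits were 216 lower of 15258 with N6 and 916 lower of 16262 with dT. Added dT lowered 1 core histone, Hist1h3b (-1.18 ± 0.27, edgeR adjusted p = 0.0341), an H3 gene at 0 in every dT library, and NSR against N6 lowered 1 of 57. The shares of all tested genes called lower there were 0.376% with dT added and 0.128% for NSR against N6.

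The genes that make and process histone mRNA, whose own mRNAs are polyadenylated, did not follow. Of 19, 2 were higher and 1 lower with random primers than with dT, with a median of 0.03. Among all tested genes 9.53% were called higher and 7.54% lower, with a median of 0.12, so these counts lie near the general rate. Casp8ap2, needed for histone gene expression in S phase, was higher (1.29 ± 0.31, edgeR adjusted p = 0.00975), Upf1, a helicase that takes part in histone mRNA decay, was higher (0.81 ± 0.27, adjusted p = 0.0469), and Lsm10, a subunit of the U7 particle that cuts histone pre-mRNA, was lower (-2.59 ± 0.71, adjusted p = 0.0203). Slbp itself had -0.45 ± 0.24 and was not called. Its level was 47.0 ± 12.8 CPM with NSR and 40.8 ± 8.68 CPM with N6, against 115 ± 26.9 CPM with dT on the scale of library totals. With dT against bulk 0 of 19 were called (edgeR), where 11.9% of tested genes were called lower. Against bulk, 2 of 19 were higher and 0 lower with NSRdT, and 1 was higher and 0 lower with N6dT. With NSR and with N6, 1 was higher and 1 lower in each. Over all genes, 419 of 15553 were called higher with NSRdT, 411 of 15234 with N6dT, 619 of 15418 with NSR and 503 of 15207 with N6. Called lower were 2.58%, 2.09%, 4.65% and 3.9% in that order. By smallest p, Npat, a histone gene transcription activator, was higher with NSRdT (1.05 ± 0.12) and Casp8ap2 with N6dT (0.87 ± 0.11). Ncbp2, a cap-binding protein, was lower with NSR (-1.20 ± 0.25) and Lsm11, a partner of Lsm10, was lower with N6 (-5.64 ± 0.77). Lsm11 had 0 to 0.264 CPM with N6, below the floor of 3 counts, so the size of its change is uncertain. It also spread from 2.97 to 34.1 CPM with NSR and from 0.203 to 36.9 CPM with dT. Without bulk replicate 2 Npat stayed called (edgeR adjusted p = 0.0366), and Casp8ap2 (adjusted p = 0.0540), Ncbp2 (adjusted p = 0.160) and Lsm11 (adjusted p = 0.0558) did not. Srrt, which has the highest mean of the list over all 18 libraries, averaged 93.3 CPM with NSR and 59.9 CPM with N6, against 181 CPM with dT. With dT added, Upf1 was lower (-0.86 ± 0.21).

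Histone chaperones and HMG proteins that bind nucleosomes beside H1 went the other way. Of 11, 0 were higher and 8 lower with random primers than with dT, with a median of -0.72. Among all tested genes 7.54% were called lower, and the median was 0.12. Ptma, an acidic protein that binds H1, averaged 548 ± 42.4 CPM with random primers and 1388 ± 41.6 CPM with dT on the TMM scale (-1.34 ± 0.07, edgeR adjusted p = 3.03e-10). Npm1, a nucleolar chaperone, had -0.72 ± 0.06, and Hmgn1, a nucleosome-binding protein, had -1.35 ± 0.14. With dT added to random primers 3 of the 11 were higher, where 1.8% of tested genes were called higher, namely Ptma (0.62 ± 0.06), Hmgn1 (0.79 ± 0.12) and Hmgb2 (0.55 ± 0.09). Actb, a polyadenylated reference transcript, had a log2 fold change of 0.13 ± 0.09 for random primers over dT and was not called.

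The genes whose levels ran most like the mean H1 level were named by Pearson's r of log2(CPM + 1) over the 18 libraries, among 7814 genes with a mean of at least 10 CPM. They were Rpph1, the RNA of RNase P (r = 0.992), the rRNA-like locus Gm26917 (0.986), the core histone Hist1h2bg (0.981), the nuclear non-coding RNA Malat1 (0.979) and the core histone Hist1h4d (0.978). Of the 20 most alike, 12 were core histones, of which 51 were compared. Rpph1 averaged 258 CPM with NSRdT, 329 with N6dT, 407 with NSR, 484 with N6 and 0.300 with dT, against 6867 in bulk. The points share the low dT and the high bulk libraries, so r mostly describes that order. Among the H1 genes themselves r was 0.884 to 0.982 over 18 libraries and 0.654 to 0.965 over the 15 without dT, lowest for Hist1h1b with Hist1h1e.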

How the data were processed

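The 18 libraries were described by 1 table of estimated counts per transcript that the authors deposited, not whole in all entries. It held 115125 transcript entries and, besides these, 92 ERCC spike-in entries. The mm10 build and bcl2fastq 2.16.0.10 are named in the submitters' processing notes, while an aligner or counting tool is not given in the sources used here. Counts were summed per gene without spike-ins, giving 47643 genes, and rounded for tests. CPM are relative to the library total unless stated. edgeR 4.0.16 (R 4.3.3) was used with TMM, filterByExpr and its quasi-likelihood F test with Benjamini-Hochberg adjustment over all tested genes, with 15 RT-RamDA libraries in 1 fit and 6 libraries in each fit against bulk. SE is the absolute log2 fold change over the square root of F. A count of 0 allows up to 3 counts. Reads carry no molecular identifiers, so such floors cover counting error only. The script was tested on simulated data.

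Alternatives were DESeq2 1.42.0, other scalings, no filter, a replicate block, leaving out each library, and all 18 libraries in 1 fit. A scaling without rRNA-like loci, a fit without the dT libraries and list counts without bulk replicate 2 were chosen after seeing the data. The genes named are the 5 H1 genes, the other linker histones, from each list the 2 most abundant genes and any called gene with the smallest p, and the 5 genes most like H1. Others, such as Hist1h2ap as the lower core histone, Upf1, Lsm10, Npm1, Hmgn1 and Hmgb2, were named after their values were seen. The members and lists were chosen with earlier results of these data known. Sequences came from GENCODE vM21 (GRCm38), with gene lengths and symbols from RefSeq. The labels list 15 RT-RamDA samples and the series text 12. The title letters were read as replicate names. A sequence comparison within the coding regions is not reported here.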

Additional observations from a re-analysis of the deposited data

How the results depend on the processing

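All 5 H1 genes stayed higher with random or mixed primers than with dT under each alternative tried. Over the members' fold changes 762 alternatives kept direction and side of the threshold, 67 lost a call, 22 gained one and 14 turned sign. With library totals alone the sign turned for Hist1h1b in NSR against N6 (0.29) and with dT added (0.16), for Hist1h1a (0.072) and Hist1h1d (0.027) in the interaction, and for Hist1h1e against bulk with N6 (-0.90) and N6dT (-1.12). With totals without annotated rRNA and mitochondrial genes it turned for Hist1h1b (0.22 and 0.088), Hist1h1a in the interaction (0.033) and Hist1h1e with N6 (-0.37) and N6dT (-0.65). With no filter Hist1h1e had -0.019 for N6dT against bulk. Leaving out 1 library gave -0.024 to 0.18 for that value, and -0.12 to 0.00366 for Hist1h1a in the interaction. The cause was not tested.

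The number of the 5 genes called for NSR against N6 (1) became 0 with either totals scaling, 3 with no filter, 2 with DESeq2 and 4 without the dT libraries. With dT added (1) it became 0 with either totals scaling and with the replicate block, 2 with no filter or DESeq2 and 3 without the dT libraries. N6 against bulk (1) gave 5 with library totals, 4 without annotated rRNA, 3 with DESeq2 (Hist1h1a and Hist1h1c lower, Hist1h1e higher) and 0 with the replicate block or all 18 libraries in 1 fit. NSR against bulk (4) gave 2 with the block and 2 with all 18, N6dT (4) gave 2 with the block and 1 with all 18, and NSRdT (5) gave 2 with all 18. Leaving out 1 library gave 0 to 1 for NSR against N6, 0 to 2 with dT added, and against bulk 0 to 2 for N6, 2 to 4 for NSR, 3 to 5 for dT, 1 to 3 for N6dT and 4 to 5 for NSRdT.

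Same-numbered libraries did not deviate together (45 pairs, correlations -0.0339 to 0.0361, with the best match at its own number for 5 of 18 libraries), so the replicate block was kept as an alternative only. The H1 sum without annotated rRNA and mitochondrial genes was 746 CPM with NSRdT, 907 with N6dT, 893 with NSR, 1081 with N6 and 2216 in bulk, and without rRNA-like loci too it was 1069 with NSRdT, 1701 with N6dT, 1433 with NSR, 2172 with N6, 59.2 with dT and 2464 in bulk. Over all genes, N6 against bulk called 503 higher and 593 lower, against 142 and 8570 with library totals and 1116 and 958 with DESeq2. In the dT libraries Hist1h1a and Hist1h1e rest on 0 to 71.2 counts.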
